A study of Mus musculus with 10 samples.

Results

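The 10 genes that build, supply and move coenzyme A were described in the epithelium of pancreatic ductal adenocarcinomas that arise in engineered KPFSR mice. They were taken by symbol as a pathway list, and all 10 were among the 15624 genes of the count table. All 10 also had enough counts to be among the 13006 genes tested. The list holds the vitamin transporter Slc5a6, the pantetheinase Vnn1, the pantothenate kinases Pank1 to Pank4, the enzymes Ppcs, Ppcdc and Coasy, and the mitochondrial carrier Slc25a42.

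RNA was sequenced from epithelium that was laser-captured from frozen sections of established tumours, in 6 samples from tamoxifen-treated mice and 4 samples from mice given corn oil, the vehicle. Both groups are KPFSR. From knowledge of the model and not from the labels, this strain carries a pancreatic Flp recombinase, a mutant Trp53 allele, floxed Slc7a11 and a CreERT2 that the same Flp switches on, and tamoxifen lets CreERT2 delete Slc7a11. The corn oil mice therefore carry every one of these alleles and lacked both the drug and the deletion, whose effects cannot be told apart here. The labels name no ages, doses or animals, so each p-value reflects the spread between the samples alone, which may be partly technical.

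Coenzyme A is the carrier on which cells activate acetate, fatty acids and other acyl groups. Cells make it from pantothenate (vitamin B5), which is taken up, phosphorylated by a pantothenate kinase, joined to cysteine by Ppcs, decarboxylated by Ppcdc and completed by the bifunctional Coasy. Cysteine supplies the sulphur, so the pathway is a fate of cysteine beside glutathione. The cystine importer Slc7a11 is a source of cysteine for both, and cysteine itself was not measured here.

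Libraries held from 6899347 to 19462115 counts in all with tamoxifen and from 16473902 to 36132316 with corn oil. Levels are CPM scaled with TMM factors (normalised CPM), each library's reads of a gene relative to its total, and tamoxifen replicate 6, the shallowest library, had 1 read worth 0.163 normalised CPM. The targeted gene Slc7a11 stood at 12.1 ± 5.79 normalised CPM (SD, n = 6) with tamoxifen and 32.1 ± 8.65 (SD, n = 4) with corn oil. The 8 epithelial markers, keratins and adhesion genes, summed to 14551 to 25395 normalised CPM with tamoxifen and 15577 to 30707 with corn oil, and none of them was at 0. Their fitted log2 fold change was below 0 for 7 of 8, with a median of -0.37. The 8 fibroblast markers summed to 131 to 1043 with tamoxifen, with a median of 318, and to 126 to 463 with corn oil, with a median of 206. All 8 had a fitted log2 fold change above 0, with a median of 1.21, against -0.01 for all genes, and 2 of them had an unadjusted edgeR p under 0.05 but 0 passed the FDR. The part of this shift in the members' values was not tested beyond a fit with the fibroblast level as a covariate. In that fit 0 of 10 members passed, against 7 of 13006 genes. The count of members cannot show that part, as it was also 0 of 10 without the covariate. Macrophage markers, 7 of 8 listed, summed to 810 to 2047 with tamoxifen and 891 to 1334 with corn oil. By fitted fold change 6 of these 7 were lower with tamoxifen and 1 higher (median log2 value -0.42), and 0 passed the FDR. The higher one, Cd14 (0.95), had the largest mean of the 7 in both groups, 783 and 405 normalised CPM. Its lowest tamoxifen value, 699, exceeded its highest corn oil value, 584, so the sums lean on Cd14. The listed markers of the neutrophil, acinar, endothelial and hepatocyte lists each summed to at most 204 in every library. Among tamoxifen replicates 1 to 3, Pearson's r across genes was 0.921 to 0.963 on the log2 CPM scale, while every other pair of libraries had 0.878 or less. The labels do not say whether these 3 share an animal or a batch; if they do, the 6 tamoxifen samples are not 6 independent ones, and the SDs and p-values given here may be too small. Counted as 1 sample, they left 0 of 10 members past the FDR, against 0 of 12785 genes. The log2 fold changes were then 1.18 for Pank1, -0.076 for Pank2 and 0.50 for Vnn1. By Xist and Ddx3y, 1 tamoxifen library (replicate 6) and 2 corn oil libraries (replicates 1 and 4) were female.

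Sequence set some members of the list apart from the others. Pank1, Pank2 and Pank3 each hold a microRNA gene on their own strand within the gene, Mir107, Mir103-2 and Mir103-1, while none of the other 7 genes holds a microRNA of the RefSeq table (GRCm38.p6). The 3′ arms of the 3 microRNAs are shown because they tie the kinase genes together: they share 1 seed, bases 2 to 8, in capitals. Levels of these microRNAs were not analysed here.
miR-107-3p (in Pank1): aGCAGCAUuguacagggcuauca
miR-103-3p (in Pank2 and in Pank3): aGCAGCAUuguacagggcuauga

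RefSeq promoter windows (GRCm38.p6), running from 250 bases before to 50 after a gene start, were matched for 8 members, all but Vnn1 and Coasy, with 12 windows in all. Each window was searched on both strands for the CCAAT box (CCAAT), the GC box (GGGCGG), the E-box (CACGTG), an antioxidant response element (TGACNNNGC) and an amino acid response element (TGATGNAA), and no match in these windows overlapped one of another motif. GC boxes lay in 8 of the 12 windows, against 35.7% of 32851 windows of all genes, and CCAAT boxes in 7 of 12, against 37.4%. The antioxidant element was found in 1 window, of Pank2, against 12.4% of all windows, and the E-box and the amino acid element in 0 of 12, against 7.15% and 3.97%. The GC content of the 12 windows ran from 45.7% to 78%, against a median of 52.7% over all windows. Windows of 1 gene are not independent, and the part of base content in these shares was not tested. Such matches describe letters, not binding.

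Both Pank1 windows and that of Pank3 are printed because Pank1 was the member whose level varied most between corn oil libraries and Pank3 a kinase read in every library. The Pank1 starts lie 1538 bases apart on the minus strand. Capitals mark CCAAT and GC boxes in either orientation. Neither Pank1 window held a GC box, the upstream one held none of the 5 motifs, and the Pank3 window held 1 GC box and 1 CCAAT box.
Pank1 upstream start, chr19:34879406-34879705, minus strand: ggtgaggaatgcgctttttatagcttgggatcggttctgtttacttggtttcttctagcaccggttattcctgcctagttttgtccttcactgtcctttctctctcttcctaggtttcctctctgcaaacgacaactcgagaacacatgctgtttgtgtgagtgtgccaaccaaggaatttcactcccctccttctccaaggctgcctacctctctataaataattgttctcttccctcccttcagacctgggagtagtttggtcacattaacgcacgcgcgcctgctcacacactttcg
Pank1 downstream start, chr19:34877868-34878167, minus strand: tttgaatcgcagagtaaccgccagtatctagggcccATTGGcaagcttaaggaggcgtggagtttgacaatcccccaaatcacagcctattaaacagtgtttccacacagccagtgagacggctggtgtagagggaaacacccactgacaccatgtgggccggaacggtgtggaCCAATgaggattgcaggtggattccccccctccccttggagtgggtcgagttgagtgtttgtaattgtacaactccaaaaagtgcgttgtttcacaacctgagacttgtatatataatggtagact
Pank3, chr11:35769245-35769544, plus strand: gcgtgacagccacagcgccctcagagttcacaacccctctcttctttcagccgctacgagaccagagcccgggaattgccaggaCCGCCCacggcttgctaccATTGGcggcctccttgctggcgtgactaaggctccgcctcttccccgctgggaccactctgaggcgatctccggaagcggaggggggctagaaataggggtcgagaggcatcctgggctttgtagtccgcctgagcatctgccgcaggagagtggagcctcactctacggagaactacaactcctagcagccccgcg

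The main comparison asked whether genes of coenzyme A synthesis differed between tamoxifen and corn oil tumours. No member passed the test: 0 of 10 had an edgeR quasi-likelihood p adjusted over all 13006 genes under 0.05, against 5 of 13006 (0.0384%) over all tested genes. At an unadjusted p under 0.05 there were also 0 of 10 members, against 9.7% of all genes. DESeq2, run as an alternative, called 0 of 10 members, against 1.87% of all genes, and had 0 of 10 at an unadjusted p under 0.05, against 11.8%. Limma voom with sample quality weights called 0 of 10, against 9.62% of all genes, and had 2 of 10, Pank1 and Coasy, at an unadjusted p under 0.05, against 26.9%. The fitted fold change was above 0 for 7 of 10 members, against 49.3% of all genes, and the median log2 fold change was 0.36 for the members and -0.01 for all genes. The groups overlapped for all 10 members, where 3.23% of all genes did not overlap. In captured bulk tissue, fewer cells of a type and less RNA per cell cannot be told apart.

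**Figure D1:**
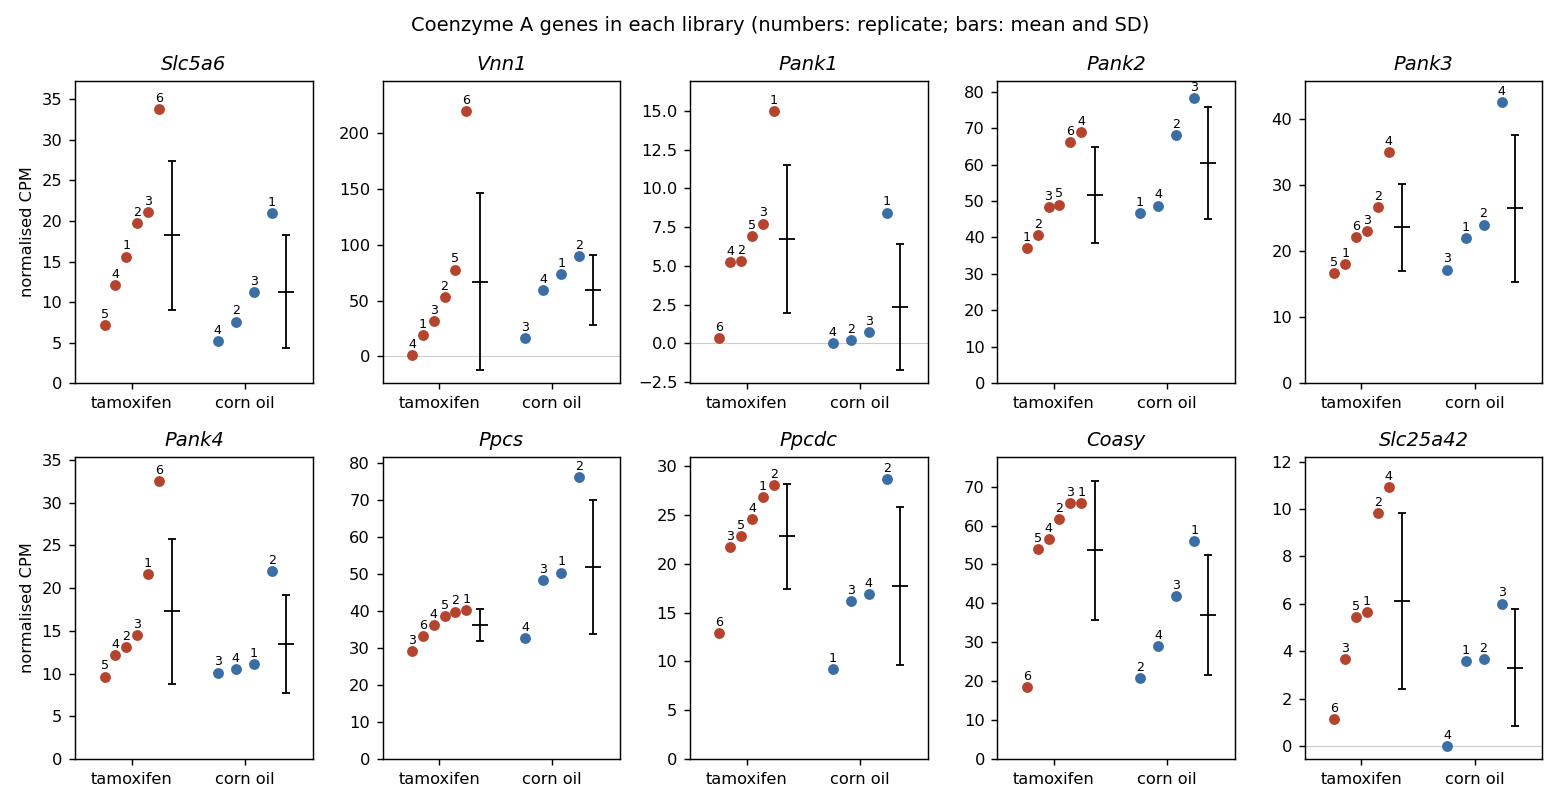
Normalised CPM of the 10 coenzyme A genes in each library (vertical axes), tamoxifen left and corn oil right; points are libraries ordered by level and numbered by replicate, and bars give the mean and SD. The groups overlap in all 10 panels, Pank1 is near 0 in 3 corn oil libraries and in tamoxifen replicate 6, and tamoxifen replicate 6 stands apart for Coasy (18.5) and Vnn1 (220).

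Supply of pantothenate rests on Slc5a6, the sodium-dependent multivitamin transporter, which also carries biotin. Slc5a6 ran from 7.16 to 33.8 normalised CPM with tamoxifen, with a median of 17.7, against 20.99, 7.59, 11.2 and 5.20 in corn oil replicates 1 to 4. Tamoxifen replicate 6 was highest of all libraries, but corn oil replicate 1 stood above 4 of the 6 tamoxifen libraries. The log2 fold change was 0.70 (SE 0.56, approximate 95% interval -0.52 to 1.91), with an edgeR adjusted p of 0.767. Without corn oil replicate 1 it was 1.19, and without tamoxifen replicate 6 it was 0.43. The gene spans bases 31036036 to 31048924 of chromosome 5 (GRCm38, minus strand), and 9.92% of its exon length is shared with exons of Atraid on the opposite strand. These kits do not mark strand, so reads from the shared stretch cannot be told apart. Atraid ran from 142 to 337 normalised CPM with tamoxifen and from 81.5 to 327 with corn oil, above the highest Slc5a6 value throughout. The part of Atraid reads in the level of Slc5a6 was not tested.

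Vnn1, the membrane-anchored pantetheinase that splits pantetheine into pantothenate and cysteamine and so returns the vitamin to the start of the pathway, varied most among tamoxifen libraries. It spans bases 23894688 to 23905343 of chromosome 10 (GRCm38, plus strand). Its level ran from 1.07 in tamoxifen replicate 4 to 220 in tamoxifen replicate 6 with a median of 42.4, against 73.6, 89.96, 16.7 and 59.4 normalised CPM in corn oil replicates 1 to 4. Raw counts in those 2 tamoxifen libraries were 17 and 1346, and their totals 16551859 and 6899347, so the shallower library held more reads of Vnn1. The coefficient of variation was 118% with tamoxifen and 52.4% with corn oil. The fitted log2 fold change was 0.16 (SE 0.90, interval -1.78 to 2.10, edgeR adjusted p 0.982), while the difference of mean log2 CPM was -0.78, so the direction depends on how libraries are averaged. Without tamoxifen replicate 6 the fitted value was -0.71. Vnn3, the related gene listed with the breakdown enzymes, had counts in 2 tamoxifen libraries only, at most 12 reads, and was too low to test.

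The pantothenate kinases take the committed step, and coenzyme A and its thioesters inhibit Pank1 to Pank3. Pank1, known from liver and as a target of p53, had the largest fitted fold change of the list. It spans bases 34806940 to 34879455 of chromosome 19 (GRCm38, minus strand). It ran from 0.327 to 14.98 normalised CPM with tamoxifen, with a median of 6.10, against 8.43, 0.183, 0.725 and 0 in corn oil replicates 1 to 4. The levels fell into 2 clusters: tamoxifen replicates 1 to 5 had 5.22 or more, as did corn oil replicate 1, while tamoxifen replicate 6 and corn oil replicates 2 to 4 had 0.725 or less. Raw counts were 2 to 172 with tamoxifen and 0 to 137 with corn oil, and the 0 in corn oil replicate 4 allows up to 0.125 normalised CPM (3 counts in 25137133). The log2 fold change was 1.54 (SE 1.39, interval -1.47 to 4.55), with an edgeR adjusted p of 0.802 and an exact two-sided permutation p of 0.124 (0.576 adjusted over all genes), where the smallest possible is 0.00476. It was 4.45 without corn oil replicate 1, with an unadjusted edgeR p of 0.0153 but an adjusted p of 0.449. Without tamoxifen replicates 1 to 3 it was 0.84. Limma voom gave 3.26, with an unadjusted p of 0.0277 and an adjusted p of 0.133.

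Trp53 itself, the gene of p53, was higher in each tamoxifen library than in any with corn oil, at 149 ± 82.9 normalised CPM (SD, n = 6) with tamoxifen and 7.59 ± 1.47 (SD, n = 4) with corn oil. The groups did not overlap for 3.23% of all genes. Unlike the members, Trp53 passed the edgeR test (log2 fold change 4.30, SE 0.61, adjusted p 0.0362). Its exact two-sided permutation p adjusted over all genes was 0.264. Tamoxifen replicate 1 was the highest library for both genes, with 225 normalised CPM of Trp53 and 14.98 of Pank1. Tamoxifen replicate 6 had 84.6 normalised CPM of Trp53 and 0.327 of Pank1, and tamoxifen replicate 4 had 19.98 of Trp53 and 5.22 of Pank1. Corn oil replicate 1, with 6.40 of Trp53, had 8.43 of Pank1. The relation between the 2 genes across libraries was not tested. The counts are totals per gene, so RNA of the mutant and of a normal Trp53 allele cannot be told apart. Neither p53 activity nor the cause of the Trp53 difference was tested.

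Pank2, the isoform that in human cells reaches mitochondria and whose mutation causes a neurodegeneration with brain iron, was the steadiest kinase. It ran from 37.0 to 68.9 normalised CPM with tamoxifen, with a median of 48.7, against 46.6, 68.2, 78.2 and 48.8 in corn oil replicates 1 to 4. The coefficient of variation was 25.4% with tamoxifen and 25.3% with corn oil. The log2 fold change was -0.23 (SE 0.28, interval -0.83 to 0.38, edgeR adjusted p 0.875), and it was 0.03 without tamoxifen replicates 1 to 3. Rnf24 on the opposite strand shares 22.9% of the exon length of Pank2, and its level ran from 0.163 to 22.8 with tamoxifen and 5.41 to 6.46 with corn oil, so an exchange of reads between them cannot be told apart.

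Pank3, a cytosolic kinase of broad expression, ran from 16.7 to 35.0 normalised CPM with tamoxifen, with a median of 22.6, against 21.98, 24.02, 17.2 and 42.6 in corn oil replicates 1 to 4. Its log2 fold change was -0.17 (SE 0.38, interval -0.98 to 0.65, edgeR adjusted p 0.946), and 0.16 without corn oil replicate 4, the highest library. Pank4, which is related to the kinases in sequence but lacks the catalytic residue and carries a phosphatase domain, ran from 9.65 to 32.5 normalised CPM with tamoxifen, with a median of 13.8, against 11.1, 22.0, 10.1 and 10.6 in corn oil replicates 1 to 4. Tamoxifen replicate 6 was highest, and corn oil replicate 2 stood apart from the other 3 of its group. Its log2 fold change was 0.36 (SE 0.49, interval -0.71 to 1.42, edgeR adjusted p 0.891), and 0.08 without tamoxifen replicate 6 or 0.70 without corn oil replicate 2.

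Per exon length Pank2 led the active kinases. In reads per kilobase of exon (normalised CPM per kb), Pank2 stood at 10.5 ± 2.67 (SD, n = 6) with tamoxifen and 12.3 ± 3.11 (SD, n = 4) with corn oil. Pank3 stood at 3.20 ± 0.90 per kb with tamoxifen and 3.59 ± 1.51 with corn oil, and Pank1 at 0.816 ± 0.579 with tamoxifen and 0.283 ± 0.49 with corn oil. Of the summed level per kb of Pank1 to Pank3, Pank2 made 63.9% to 81.6% with tamoxifen and 63.2% to 86.8% with corn oil. The share of Pank1 ran from 0.240% to 15.4% with tamoxifen and from 0% to 7.56% with corn oil. These shares are of RNA and say nothing of enzyme activity.

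Ppcs, phosphopantothenoylcysteine synthetase, is the step at which cysteine enters, and it had the smallest edgeR p of the list. It is a short gene of 2 exon blocks at bases 119418530 to 119422420 of chromosome 4 (GRCm38, minus strand). Its level ran from 29.2 to 40.3 normalised CPM with tamoxifen, with a median of 37.4, against 50.4, 76.3, 48.4 and 32.7 in corn oil replicates 1 to 4. All 6 tamoxifen libraries lay below 3 of the 4 corn oil libraries, while corn oil replicate 4 fell within their range. Tamoxifen libraries were close together, with a coefficient of variation of 11.9% against 34.8% with corn oil. The log2 fold change was -0.52 (SE 0.29, interval -1.14 to 0.10), with an unadjusted edgeR p of 0.0921, an adjusted p of 0.612 and an exact two-sided permutation p of 0.0524 (0.464 adjusted over all genes). It ranked 1956 of 13006 genes by p. The fitted value was -0.27 without corn oil replicate 2 and -0.28 with the fibroblast marker level as a covariate. Leaving out corn oil replicate 4 gave -0.69, and the groups no longer overlapped (unadjusted edgeR p 0.0360, adjusted p 0.534). Fibroblast markers were lowest in corn oil replicate 2, the library with most Ppcs, and their part in the difference was not tested beyond that covariate.

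Ppcdc, the decarboxylase of the next step, ran from 12.9 to 28.1 normalised CPM with tamoxifen, with a median of 23.7, against 9.17, 28.7, 16.2 and 16.9 in corn oil replicates 1 to 4. Tamoxifen replicates 1 to 5 lay above 3 of the 4 corn oil libraries, and corn oil replicate 2 was highest of all. Its fitted log2 fold change was 0.36 (SE 0.42, interval -0.53 to 1.26, edgeR adjusted p 0.860), with 0.15 when corn oil replicate 1 was left out, 0.70 when replicate 2 was, and 0.68 in limma voom (adjusted p 0.240).

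Coasy, at bases 101082565 to 101086619 of chromosome 11 (GRCm38, plus strand), encodes the bifunctional synthase of the last 2 steps. Its level ran from 18.5 to 65.8 normalised CPM with tamoxifen, with a median of 59.0, against 56.1, 20.8, 41.9 and 28.9 in corn oil replicates 1 to 4. Tamoxifen replicates 1 to 5 lay between 53.9 and 65.8, above corn oil replicates 2 to 4 and on either side of replicate 1, while tamoxifen replicate 6 was lowest of all. The log2 fold change was 0.54 (SE 0.39, interval -0.31 to 1.39), with an edgeR adjusted p of 0.727 and an exact two-sided permutation p of 0.281 (0.737 adjusted over all genes). Without tamoxifen replicate 6 it was 0.72 with an unadjusted edgeR p of 0.0343 and an adjusted p of 0.347, and without tamoxifen replicates 1 to 3 it was 0.22. Limma voom gave 0.72, with an unadjusted p of 0.0250 and an adjusted p of 0.126. Coasy and Ppcs, enzymes of the same chain, had fold changes of opposite sign, but neither passed the test and the difference between them was not tested.

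Slc25a42, the mitochondrial inner membrane carrier that exchanges coenzyme A for adenine nucleotides, was among the least abundant members. It ran from 1.14 to 10.9 normalised CPM with tamoxifen, with a median of 5.54, against 3.57, 3.66, 6.004 and 0 in corn oil replicates 1 to 4. The lowest tamoxifen library was replicate 6 with 7 reads, and corn oil replicate 4 had 0 reads, which allows up to 0.125 normalised CPM. On the log2 scale the fold change was 0.89 (SE 1.13, interval -1.55 to 3.32, edgeR adjusted p 0.880), with 0.47 when corn oil replicate 4 was left out and 2.12 in limma voom (adjusted p 0.291).

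**Figure D2:**
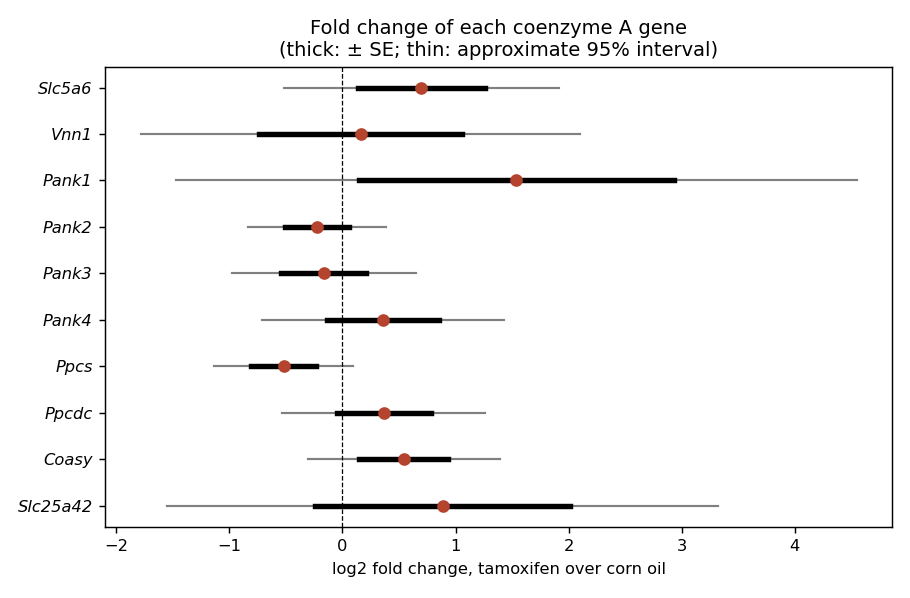
Log2 fold change of each coenzyme A gene, tamoxifen over corn oil (horizontal axis), in the order of the pathway; points are edgeR estimates, thick bars ± SE and thin bars approximate 95% intervals. All 10 intervals include 0, and that of Ppcs (-1.14 to 0.10) reaches least above it.

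Several members were at their lowest or highest in the same libraries. The 4 libraries lowest for Pank1, which were tamoxifen replicate 6 and corn oil replicates 2, 3 and 4, were also the 4 lowest for Coasy, a match noticed after the values were seen. For Slc25a42, tamoxifen replicate 6 and corn oil replicate 4 were the 2 lowest. In tamoxifen replicate 6, Pank1, Ppcdc, Coasy and Slc25a42 were each the lowest of the tamoxifen group, and Pank4, Slc5a6 and Vnn1 the highest. That library was also the shallowest and the only female one of its group, and detected 11643 genes. The part of depth and sex in its values was not tested. With the number of detected genes as a covariate the log2 fold change of Pank1 was 2.08 and that of Coasy 0.65. With sex as a covariate these values were 2.86 and 0.33. In either fit 0 of 10 members passed the test, against 21 of 13006 genes with detected genes and 0 of 13006 with sex.

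**Figure D3:**
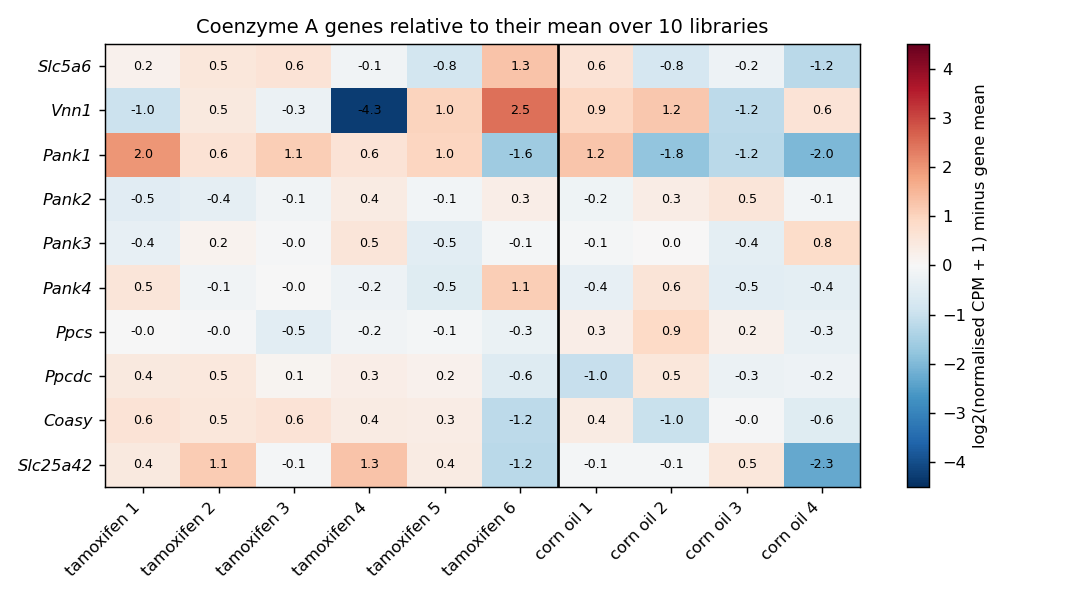
Log2(normalised CPM + 1) of each gene (rows, in pathway order) minus its mean over the 10 libraries (columns, tamoxifen left of the line and corn oil right). Pank1, Coasy and Slc25a42 are low together in tamoxifen replicate 6 and corn oil replicate 4, and Vnn1 is lowest in tamoxifen replicate 4 and highest in tamoxifen replicate 6.

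Ordered by level per kilobase of exon over all libraries, Vnn1 and Ppcs led, followed by Coasy and Pank2. Vnn1 stood at 27.8 ± 32.9 (SD, n = 6) normalised CPM per kb with tamoxifen and 24.8 ± 13 (SD, n = 4) with corn oil. Tamoxifen replicate 6 had 91.0 per kb of Vnn1, and the rest of that group ran from 0.442 to 32.2. The first place of Vnn1, with a mean over all libraries of 26.6 against 26.5 for Ppcs, leaned on that library. Ppcs stood at 22.6 ± 2.70 with tamoxifen and 32.4 ± 11.3 with corn oil, so the means of Vnn1 and Ppcs lay within their spread of each other. Coasy stood at 18.7 ± 6.24 with tamoxifen and 12.9 ± 5.39 with corn oil. Pank4, Slc5a6, Ppcdc and Pank3 formed a middle group whose means per kb ran from 3.20 to 4.95 with tamoxifen and from 2.82 to 3.86 with corn oil. Slc25a42, at 1.02 ± 0.618 with tamoxifen and 0.552 ± 0.413 with corn oil, and Pank1 were lowest. Neighbours in this order overlapped in both groups, except that Pank3 lay above Slc25a42 in both, and Ppcs above Coasy and Pank2 above Pank4 with corn oil. The counts are totals per gene and the exon length takes every annotated exon, so a gene expressed from a short isoform is placed too low.

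**Figure D4:**
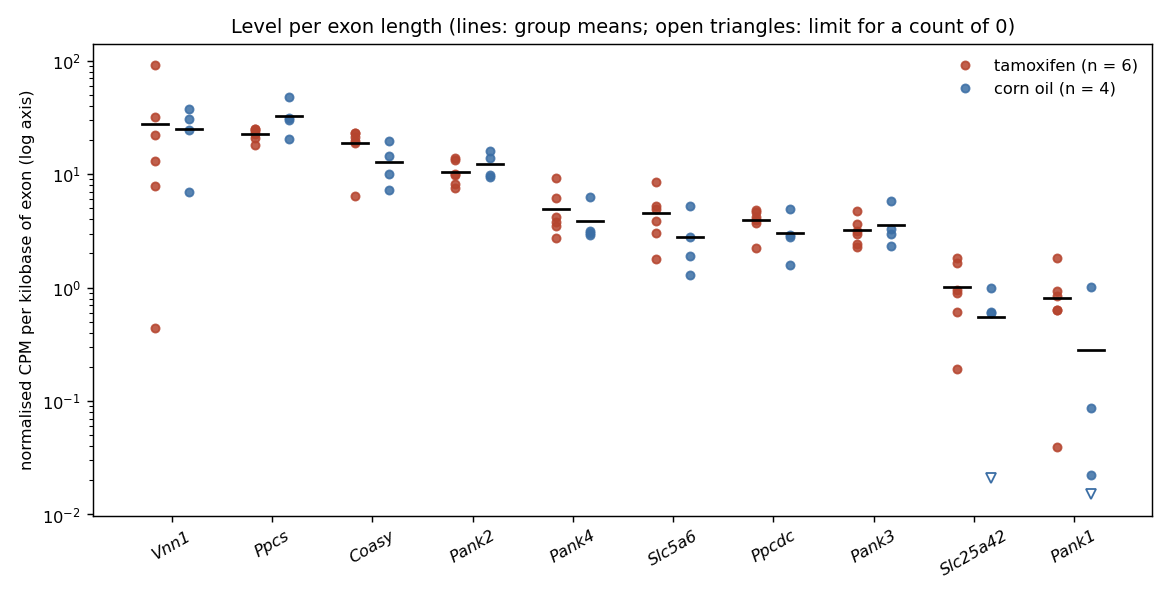
Normalised CPM per kilobase of exon (log axis) for the coenzyme A genes, ordered by mean over all libraries; points are libraries, tamoxifen left and corn oil right of each pair, lines are group means and open triangles mark the limit for a count of 0. Mean levels run from over 20 for Vnn1 and Ppcs to about 1 or less for Slc25a42 and Pank1.

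Genes with the most similar pattern to 2 members were named by rule, for the member with the smallest edgeR p and the one with the highest mean log2 CPM. Closest to Ppcs over the 10 libraries was Setdb2, with a Pearson's r of log2 CPM of 0.93 and a Spearman's rho of 0.93, then 1110001A16Rik (r 0.89, rho 0.84) and Clca3 (r 0.87, rho 0.72). Without the 2 libraries farthest from the median of Ppcs, r was 0.90, 0.66 and 0.61 for these genes. Closest to Pank2 were Srd5a3 (r 0.93, rho 0.87), Raver1 (r 0.92, rho 0.95) and Prrc2b (r 0.92, rho 0.90), and without the 2 farthest libraries r was 0.94, 0.86 and 0.92. These are the highest of 13005 values each, given as a description without a test.

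Genes around the pathway were taken from lists of known coenzyme A and cysteine enzymes. Of the list for coenzyme A breakdown and transfer, 10 of 11 genes were tested and 0 passed the test in either direction. Their median log2 fold change was -0.65, with 4 higher and 6 lower, against -0.01 for all genes. Nudt7, the peroxisomal hydrolase that cleaves coenzyme A, ran from 2.61 to 16.5 normalised CPM with tamoxifen against 27.5, 23.3, 25.6 and 25.2 in corn oil replicates 1 to 4. All tamoxifen libraries lay below all corn oil libraries (log2 fold change -1.40, SE 0.49, edgeR adjusted p 0.35). Ndufab1, the mitochondrial acyl carrier protein that bears a phosphopantetheine arm taken from coenzyme A, also lay lower in every tamoxifen library, at 33.2 ± 6.66 normalised CPM (SD, n = 6) with tamoxifen and 58.3 ± 13 (SD, n = 4) with corn oil, which is -0.81 on the log2 scale (SE 0.27, edgeR adjusted p 0.327). The groups did not overlap for these 2 of 10 genes, against 3.23% of all genes. The list also holds Enpp2, autotaxin, which acts on lysophospholipids and is not known for cleaving coenzyme A. Enpp2 stood at -2.09 on the log2 scale (SE 1.43), with a mean log2 CPM of only 0.55. The lowest value of the list, -3.12 (SE 1.80), was of a gene with a mean log2 CPM of -0.31. The median of -0.65 thus counts genes of few reads.

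Of acyl-CoA synthetases, which load acids onto coenzyme A, 14 of 15 genes were tested and 0 passed the test, with 5 higher, 9 lower and a median log2 fold change of -0.13. Acss1, the mitochondrial acetyl-CoA synthetase, stood at 7.71 ± 7.51 normalised CPM (SD, n = 6) with tamoxifen and 36.9 ± 9.83 (SD, n = 4) with corn oil, and the groups did not overlap (log2 fold change -2.26, SE 0.67, edgeR adjusted p 0.284). Acsl3, a long-chain synthetase, stood at -1.11 (SE 0.54, edgeR adjusted p 0.546) on the same scale. Of acyl-CoA thioesterases, which release coenzyme A, 8 of 10 genes were tested, 0 passed the test, 4 were higher and 4 lower, and the median was -0.05. Acot9 stood at 0.62 (SE 0.33) and Acot8 at -0.60 (SE 0.44) on the log2 scale.

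The other fates of cysteine were set beside the pathway. Of 5 genes for cystine import and glutathione synthesis, 0 passed the test, with 2 higher, 3 lower and a median log2 fold change of -0.18. Slc7a11 itself stood at -1.41 (SE 0.44, edgeR adjusted p 0.311), with no overlap between groups, and passed in limma voom (-2.08, adjusted p 0.00405). Gclc, the catalytic subunit of the first enzyme of glutathione synthesis, stood at 330 ± 98.3 normalised CPM (SD, n = 6) with tamoxifen and 217 ± 104 (SD, n = 4) with corn oil, or 0.61 on the log2 scale (SE 0.36, edgeR adjusted p 0.652). Of 10 genes for the remaining fates (taurine, hydrogen sulphide, iron-sulphur clusters), 9 were tested, 0 passed, 5 were higher and 4 lower, and the median was 0.36. This split and median count genes of few reads, with mean log2 CPM of 0.26 (SE 1.58), 0.48 (SE 1.56) and 0.79 (SE 1.44). Ado, the dioxygenase that turns cysteamine, the other product of Vnn1, into hypotaurine, ran from 37.4 to 64.1 normalised CPM with tamoxifen and from 10.3 to 23.6 with corn oil. Every tamoxifen library lay above every corn oil library (log2 fold change 1.33, SE 0.34, edgeR adjusted p 0.199). Ethe1, a mitochondrial persulphide dioxygenase of sulphide breakdown, stood at -0.86 on the log2 scale (SE 0.26, edgeR adjusted p 0.285).

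Targets of PPAR-alpha, a receptor known in liver to raise Pank1 and Vnn1, had a median log2 fold change of 0.16 over 12 tested genes, with 7 higher, 5 lower and 0 past the test. Angptl4, a secreted lipase inhibitor, stood at 1.02 (SE 0.72) on the log2 scale.

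**Figure D5:**
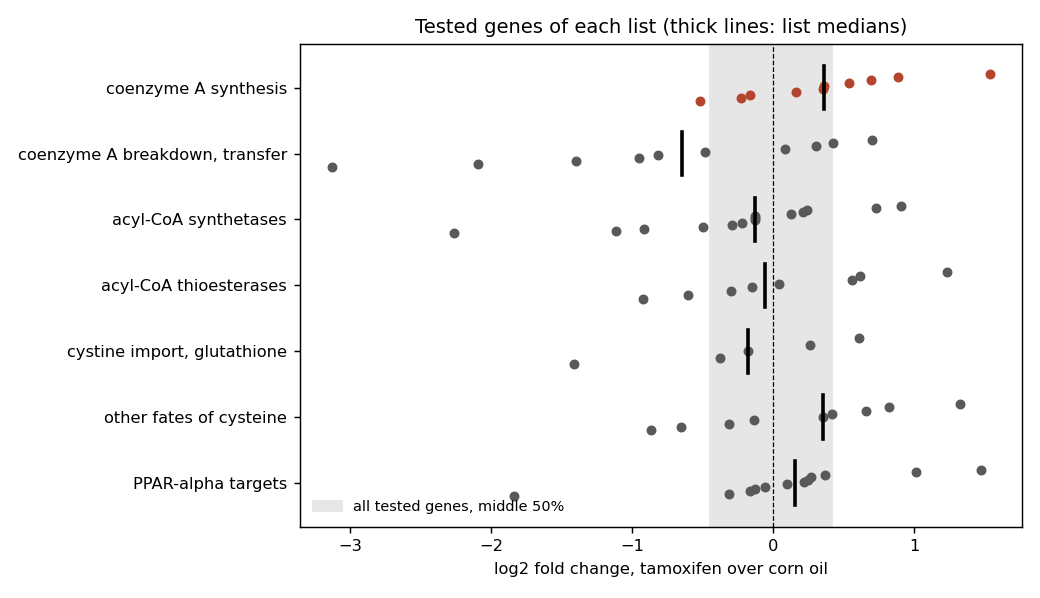
Log2 fold change, tamoxifen over corn oil (horizontal axis), of the tested genes of each list; points are genes, thick lines list medians, and the grey band holds the middle 50% of all tested genes (-0.45 to 0.42). Coenzyme A synthesis genes have a median of 0.36 and its breakdown and transfer genes one of -0.65, and no gene of any list shown passes the edgeR test.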

How the data were processed

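The deposited table holds the authors' raw counts of reads, 1 row per symbol. Tools named in the submitters' processing notes are STAR 2.5.2b, featureCounts 1.5.0-p3 and bcl2fastq 2.17, with the mm10 build. Annotation, strand setting and gene filter were not stated there or in the labels. Per the labels' protocols, RNA came from a Qiagen micro kit, cDNA from SMART-seq v4 and libraries from Nextera XT. Genes kept by filterByExpr were scaled with TMM factors and tested across the whole table with the edgeR 4.0.16 quasi-likelihood F test in R 4.3.3, with no covariate and Benjamini-Hochberg adjustment at an FDR of 0.05. The SE is the absolute log2 fold change divided by the square root of F, and 95% intervals built on it are approximate. Exact permutation used all 210 arrangements of mean log2 CPM (prior count 2) for every gene. Intervals and count limits cover counting or sampling error only. Exon lengths and positions came from GENCODE M21 (GRCm38, the assembly of mm10), promoters and microRNAs from RefSeq GRCm38.p6. The fits were also run on simulated independent libraries, which says nothing of libraries that may share an animal or a batch. DESeq2 1.42.0, limma 3.58.1 voom, other scalings, filters, covariates and leaving out libraries were alternatives. Every member is named; of each other list, the 2 tested genes with the lowest p, among those averaging a log2 CPM of 0 or more, are named where none passed, except 1 that is not reported here. The members, lists and most alternatives were chosen with earlier results of these data known. Figures were drawn with matplotlib 3.10.9.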

Additional observations from a re-analysis of the deposited data

Results flagged for a closer look

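A library stood apart from the rest of its group in 4 of 24 comparisons over the 10 genes, total counts and detected genes in both groups. The rule was Dixon's, the gap to the nearest library over the range of the group. Its limits give about 1 in 20 by chance for normally distributed values. Normalised CPM need not be so distributed and the comparisons share libraries, so that rate may not hold here. Coasy was lowest in tamoxifen replicate 6 (18.5 normalised CPM, the other 5 from 53.9 to 65.8). Vnn1 was highest in the same library (220 normalised CPM, the other 5 from 1.07 to 77.8). Pank1 was highest in corn oil replicate 1 (8.43 normalised CPM, the other 3 from 0 to 0.725). Pank4 was highest in corn oil replicate 2 (22.0 normalised CPM, the other 3 from 10.1 to 11.1).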

How the results depend on the processing

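In 24 alternatives 0 of 10 coenzyme A genes passed the FDR, and Pank1, Pank4, Ppcs, Ppcdc, Coasy, Slc25a42 and Slc5a6 kept their direction in all 23 refits. Vnn1 turned to a log2 fold change of -0.38 in voom, -0.075 with detected genes as a covariate, -0.40 without tamoxifen replicates 4 and 6, and ran from -0.71 to 0.42 with 1 library left out. Pank2 turned to 0.028 without tamoxifen replicates 1 to 3, and Pank3 ran from -0.32 to 0.16 with 1 library left out; the cause was not tested. Over all genes, the 5 calls of edgeR became 243 in DESeq2, 1251 in voom, 18 at an FDR of 0.1, 21 with detected genes and 0 (1196 at an unadjusted p under 0.05) with sex as a covariate. They were 77 without tamoxifen replicates 4 and 6, and 0 with tamoxifen replicates 1 to 3 as 1 sample (709 unadjusted) or left out (602 unadjusted). With 1 library left out they ran from 0 to 11. The number of members whose groups did not overlap ran from 0 to 1 with 1 library left out (Ppcs without corn oil replicate 4), a check added after seeing the data. Reads of Pank1 and Slc25a42, 0 to 195 per library, limit what can be said of them. No paired analysis was possible because the labels give no replicate numbers and the numbers used are accession order.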
